A study of Homo sapiens with 6 samples.

Results

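This report describes 42 genes that regulate pre-mRNA splicing: 12 SR proteins (symbols SRSF followed by a digit), the 2 TRA2 proteins, the 4 CLK kinases, the 2 SRPK kinases and 22 genes whose symbol starts with HNRNP. They were picked by their symbols from the 16376 genes of the deposited table, and symbols with a hyphen, which mark read-through genes, were left out. The values come from RNA sequencing of the human osteosarcoma (bone tumour) line HOS, with the genotype given as WT. In 3 libraries the cells had received Agrimol B, a phloroglucinol compound of Agrimonia plants (spelled Argimol B in the sample titles), for 24 h. The other 3 libraries were of control cells, for which the labels list no treatment; they do not say whether the controls received solvent, and they give no dose. HOS is a single tumour line, and separate cultures are not stated for the replicates, so p-values measure only how far these libraries scatter, which may be technical. All 10 markers listed for mesenchymal and osteoblast lineage cells had a mean over the 6 libraries of at least 1 FPKM, with VIM at 622 FPKM and RUNX2 at 5.70 FPKM. So did 4 of 6 epithelial markers (EPCAM at 13.9 FPKM, CDH1 at 0.212 FPKM), 1 of the 3 leukocyte markers present (CD14 at 1.01 FPKM, PTPRC at 0.00963 FPKM) and 1 of 5 endothelial markers (TEK at 1.95 FPKM, PECAM1 at 0.0200 FPKM). Of these, some reached 1 FPKM in only 1 group. Means in controls and with Agrimol B were 0.0817 and 1.95 FPKM for KRT19 and 0.774 and 1.89 FPKM for ESRP1. They were 1.44 and 0.588 FPKM for CD14 and 3.10 and 0.805 FPKM for TEK.

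SR proteins bind exonic enhancer sequences through RNA recognition motifs and recruit the splicing machinery through a tail rich in arginine and serine, the RS domain. Heterogeneous nuclear ribonucleoproteins (hnRNPs) coat nascent transcripts, and several of them, such as hnRNP A1, bind silencer sequences and oppose SR proteins at the same exons. SRPK kinases phosphorylate the RS domain in the cytoplasm, which favours nuclear import of SR proteins, and CLK kinases phosphorylate it further in the nucleus. Many of these genes control their own level by splicing in a poison exon, which sends the transcript to nonsense-mediated decay.

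With Agrimol B, 12 of the 22 hnRNP genes were called lower, 10 were not called and none was called higher, while 3 of the 12 SR proteins were called lower and 3 higher. FPKM is the number of fragments scaled to transcript length and library size. Differences were tested with limma on log2(FPKM + 1) over the 12143 genes whose mean reached 1 FPKM, with Benjamini-Hochberg adjustment over all of them and a threshold of 0.05. All 42 genes passed this filter. Of them, 16 were called lower and 5 higher. Over all tested genes, 21.4% were called lower and 30.6% higher, or 52.0% in either direction, so the number called (21 of 42) was near the background. The split by direction over all genes moved with the scaling: 58.8% of calls were higher as reported, 49.2% with median-ratio scaling and 50.1% with quantile normalization. The 16 genes called lower were 16 and 15 under these scalings, and those called higher 3 and 4. The number called higher was also 3 without the third control, the first Agrimol B or the third Agrimol B library. The median log2 difference was -0.03 over the 42 genes and 0.07 over all tested genes. Changes were small: the called genes that moved at least 1.5-fold in mean FPKM were HNRNPA1, HNRNPA3, HNRNPA1P48 and SRSF2. All 4 fell, and SRSF8, just under this limit, rose 1.47-fold. HNRNPA1P48 may not be separate from HNRNPA1, because their reads cannot be told apart. The share of all tested genes past this limit was not counted. Of the 21 calls, 15 held under all 13 alternative settings tried, and the exceptions were CLK1, CLK2, HNRNPL, HNRNPR, SRSF3 and HNRNPA1P48. The last of these was lost only where the filter removed the gene.

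**Figure D1:**
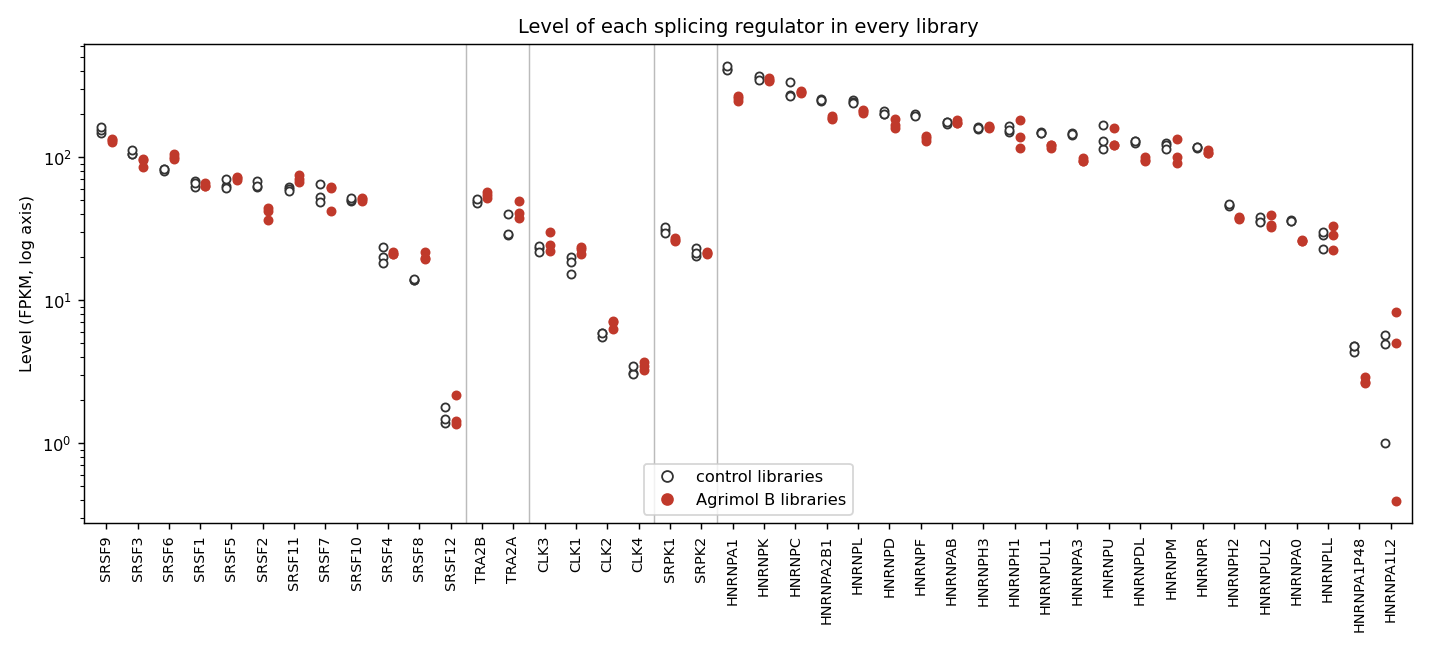
Level in FPKM (log axis) of the 42 splicing regulators in each library, grouped by family and ordered by control level within it; open circles are the 3 control libraries and red circles the 3 Agrimol B libraries. HNRNPA1, HNRNPA3, HNRNPF and SRSF2 lie lower in every Agrimol B library, SRSF8 and SRSF6 lie higher, and HNRNPA1L2 scatters widely in both groups.

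The sequences of related genes matter for reading the values, because reads from near-identical genes can be assigned to the wrong one. SRSF8 resembles SRSF2 in sequence, and the pair moved in opposite directions. Their coding sequences (transcripts SRSF2-202 and SRSF8-201 in GENCODE release 29, build GRCh38) were identical at 554 of 654 aligned bases (84.7%), and the longest run without a difference was 34 bases. Of the 90-base coding stretches without gaps and within an exon, that with the most differences is shown, from coding base 130 to 219. It is in lower case with the 18 differing bases in capitals. It lies at chr17:76736942-76737031 on the minus strand for SRSF2 and chr11:95067356-95067445 on the plus strand for SRSF8.
SRSF2: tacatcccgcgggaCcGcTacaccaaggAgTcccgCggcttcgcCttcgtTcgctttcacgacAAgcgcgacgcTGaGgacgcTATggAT
SRSF8: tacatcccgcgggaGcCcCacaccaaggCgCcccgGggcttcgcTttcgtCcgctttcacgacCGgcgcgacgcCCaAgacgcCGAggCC

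HNRNPA1 has 2 copies among the 42 genes, HNRNPA1P48 and HNRNPA1L2, both annotated as protein-coding in GENCODE, and these are far closer to it than SRSF8 is to SRSF2. The coding sequence of HNRNPA1 (HNRNPA1-201) was identical to that of HNRNPA1P48 at 779 of 786 aligned bases (99.1%), with an unbroken run of 260 bases, and to that of HNRNPA1L2 at 906 of 921 (98.4%), with a run of 174 bases. Only 90-base stretches without gaps and within an exon in all 3 genes were searched. Stretches that start before coding base 136 of HNRNPA1 have no full counterpart in HNRNPA1P48 and were not among them. The stretch with the most differences among those searched is shown, with capitals at the bases that differ in either copy. This stretch holds only 3 of them. It lies at chr12:54281798-54281887 for HNRNPA1, chr13:52642628-52642717 for HNRNPA1L2 and chr16:51645953-51646042 for HNRNPA1P48, on the plus strand in each (GRCh38).
HNRNPA1: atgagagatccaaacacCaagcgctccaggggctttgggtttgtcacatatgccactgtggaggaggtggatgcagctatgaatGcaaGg
HNRNPA1L2: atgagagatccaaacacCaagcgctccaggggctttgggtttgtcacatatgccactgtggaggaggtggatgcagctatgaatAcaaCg
HNRNPA1P48: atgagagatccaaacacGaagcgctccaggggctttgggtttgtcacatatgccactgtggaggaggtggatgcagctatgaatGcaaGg

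Of the 22 hnRNP genes, 12 were called lower, 10 were not called and 0 were called higher by limma (0 higher also at an unadjusted p under 0.05), beside 21.4% lower and 30.6% higher over all tested genes. The summed level of the 22 genes was 3451, 3425 and 3378 FPKM in the control libraries and 2988, 2844 and 2840 FPKM in the Agrimol B libraries, a mean 15.4% lower. The 4 genes counted as the A/B type (HNRNPA0, HNRNPA1, HNRNPA2B1 and HNRNPA3), which carry paired RNA recognition motifs and a glycine-rich tail, all fell. The copies of HNRNPA1 were left out of this group: HNRNPA1P48 was called lower and HNRNPA1L2 was not called. Their summed level was 853 ± 16.4 FPKM in controls and 571 ± 18.4 FPKM with Agrimol B (SD, n = 3 per group, as for all such values here).

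HNRNPA1 (chromosome 12, 54280193 to 54287088, plus strand) encodes hnRNP A1, which binds exonic silencers and promotes exon skipping. It stood at 416, 407 and 437 FPKM in the control libraries and 270, 249 and 259 FPKM in the Agrimol B libraries. The groups lay far apart, and the mean fell 1.62-fold (log2 difference -0.69, SE 0.05, limma adjusted p = 0.000108). In control cells HNRNPA1 had the highest level of the 42 genes, and with Agrimol B it ranked behind HNRNPK and HNRNPC. HNRNPA3, a close relative (chromosome 2, 177212563 to 177223958, plus strand), fell 1.53-fold, from 149, 144 and 146 to 99.1, 94.3 and 93.8 FPKM (adjusted p = 8.94e-05). Replicates of HNRNPA3 differed by a few percent while the mean fell by 34.6%.

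HNRNPA2B1, which encodes hnRNP A2 and B1 (chromosome 7, 26173057 to 26201529, minus strand), stood at 254, 248 and 250 FPKM in controls and 195, 187 and 186 FPKM with Agrimol B. That fall of 1.32-fold was called (adjusted p = 0.00027). The ratio of HNRNPA1 to HNRNPA2B1 lay between 1.64 and 1.75 in control and between 1.33 and 1.39 with Agrimol B, without overlap (exact two-sided permutation p = 0.1, the smallest that 3 against 3 libraries can give, and 0.211 adjusted over the 19 pairs compared). HNRNPA0, a single-transcript gene (chromosome 5, 137745651 to 137754376, minus strand), stood at 36.3, 36.1 and 35.7 FPKM in controls and 26.6, 25.9 and 25.9 FPKM with Agrimol B. Replicates varied little (coefficient of variation 0.902% and 1.56%), and the fall of 1.38-fold had an adjusted p of 0.00024 by limma.

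Of the copies of HNRNPA1, 1 was called lower and the other had no readable direction. HNRNPA1P48 stood at 4.35, 4.79 and 4.78 FPKM in controls and 2.68, 2.89 and 2.64 FPKM with Agrimol B, or 1.70-fold lower (limma adjusted p = 0.000555). The FPKM of HNRNPA1 was 85.0 to 95.7 times higher in control and 86.2 to 101 times higher with Agrimol B. Because the coding sequences are nearly the same, reads of HNRNPA1 assigned to HNRNPA1P48 cannot be told apart from transcripts of the copy itself. HNRNPA1L2 stood at 5.71, 1.01 and 4.92 FPKM in controls and 5.03, 8.24 and 0.394 FPKM with Agrimol B, a 20.9-fold range with the groups fully mixed (adjusted p = 0.991). No direction can be read for it: the 95% interval of its difference spans -1.98 to 1.95 on the log2 scale.

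**Figure D2:**
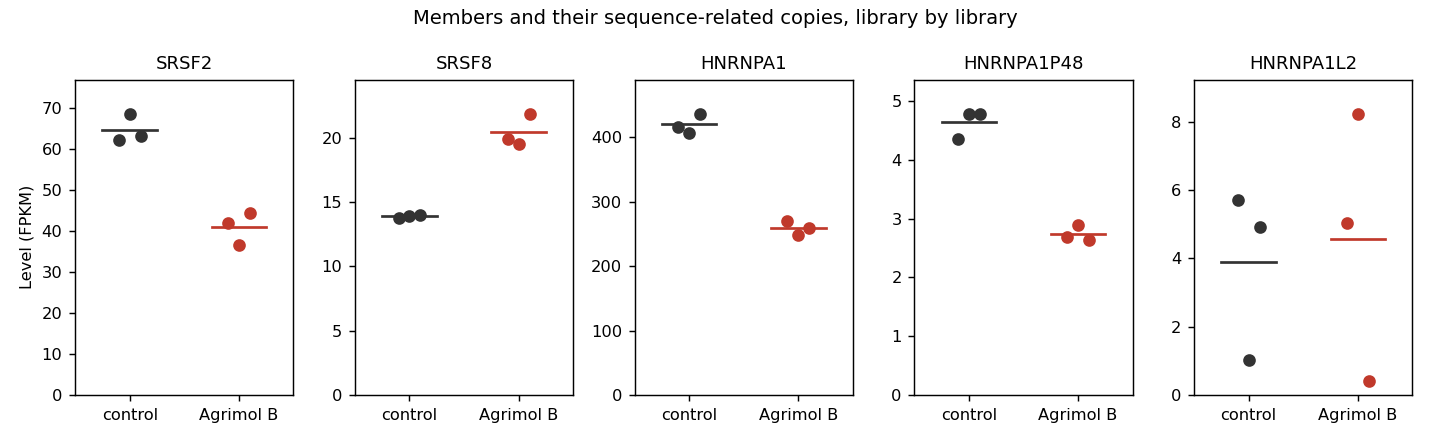
Level in FPKM (linear axes from 0, each panel with its own scale) of SRSF2, SRSF8, HNRNPA1, HNRNPA1P48 and HNRNPA1L2 in each library; points are libraries and bars are group means. SRSF2 fell from about 64.6 to 40.9 FPKM while SRSF8 rose from 13.9 to 20.4 FPKM, and HNRNPA1L2 shows no separation between groups.

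Among the D-type hnRNPs, which share the domain plan of hnRNP D, an AU-rich element binding protein, 2 of 3 genes fell, beside 21.4% of all tested genes. HNRNPDL (chromosome 4, 82422564 to 82430408, minus strand) stood at 129, 126 and 130 FPKM in controls and 101, 94.3 and 96.5 FPKM with Agrimol B, or 1.32-fold lower (limma adjusted p = 0.000489). HNRNPD, on the same chromosome, fell by 16.5%, with values of 202 to 212 FPKM in controls and 160 to 186 FPKM with Agrimol B (adjusted p = 0.0138). HNRNPAB was at 176 ± 3.27 FPKM in controls and 177 ± 5.43 FPKM with Agrimol B. The 95% interval of its difference, -0.08 to 0.10 (log2), leaves room only for small changes. The log2 ratio of HNRNPD to HNRNPAB ran from 0.18 to 0.30 in control and from -0.13 to 0.02 with Agrimol B, again without overlap (exact permutation p = 0.1, adjusted 0.211).

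The F/H group binds runs of guanines near splice sites. HNRNPF (chromosome 10, 43385617 to 43409166, minus strand) fell 1.45-fold, from 197, 201 and 195 to 130, 137 and 141 FPKM (limma adjusted p = 0.00021), and all 3 Agrimol B values were far under the lowest control. HNRNPH2 on chromosome X fell 1.23-fold to 37.6 ± 0.550 FPKM (adjusted p = 0.00104); it overlaps a read-through gene, RPL36A-HNRNPH2, on its strand. HNRNPH3 was at 162 ± 2.30 and 164 ± 2.04 FPKM, with a 95% interval of -0.06 to 0.09 (log2). HNRNPH1 was uneven in the treated cells, at 182, 117 and 139 FPKM against 150 to 166 FPKM in control, and was not called (adjusted p = 0.528). Without the first Agrimol B library it would be called lower (log2 difference -0.30, adjusted p = 0.0454).

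Of the remaining hnRNPs, HNRNPUL1 fell 1.24-fold, from between 147 and 151 FPKM to between 117 and 121 FPKM (limma adjusted p = 0.000684). HNRNPL, which binds CA-rich elements, fell 1.16-fold from 245 ± 6.89 to 210 ± 5.51 FPKM (adjusted p = 0.00415), a call lost with quantile normalization (adjusted p = 0.0723). HNRNPR differed by 1.08-fold (adjusted p = 0.0413). That call was lost in 7 of the 13 alternatives, including when any library except the third Agrimol B library was left out (adjusted p 0.00661 to 0.113 over all 13).

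Several abundant hnRNP genes were not called and had narrow intervals. HNRNPK, a KH-domain protein that binds C-rich sequence, was at 360 ± 12.2 and 349 ± 9.47 FPKM, with an interval of -0.14 to 0.05 (log2). HNRNPC, which binds uridine tracts and masks cryptic exons, was at 292 ± 36.9 and 288 ± 5.03 FPKM, with an interval of -0.23 to 0.20. Its control spread came from 1 library at 335 FPKM. HNRNPK had a slight rise with quantile normalization (log2 difference 0.11, adjusted p = 0.0471), so its direction depends on the scaling. HNRNPUL2, at a lower level, was at 36.5 ± 1.66 and 35.2 ± 3.74 FPKM, with an interval of -0.26 to 0.14. The intervals of HNRNPC and HNRNPUL2 both hold a fall of the size called for HNRNPL (log2 difference -0.22). The ratio of HNRNPUL1 to HNRNPUL2 lay between 3.93 and 4.18 in controls. In treated cells it lay between 3.08 and 3.62 (exact permutation p = 0.1, adjusted 0.211). Other uncalled hnRNPs were too variable for a statement. HNRNPU, the scaffold attachment factor, ranged from 115 to 167 FPKM in controls and from 122 to 161 FPKM with Agrimol B. HNRNPLL, the paralog of HNRNPL and the hnRNP with the highest log2 difference (0.03), stood at 28.6, 22.9 and 30.2 FPKM in controls and 33.0, 28.5 and 22.3 FPKM with Agrimol B. HNRNPM was at 115 to 125 FPKM in controls and at 99.8, 135 and 91.2 FPKM with Agrimol B (adjusted p = 0.367), and without the second Agrimol B library it would be called lower (log2 difference -0.33, adjusted p = 0.0105).

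**Figure D3:**
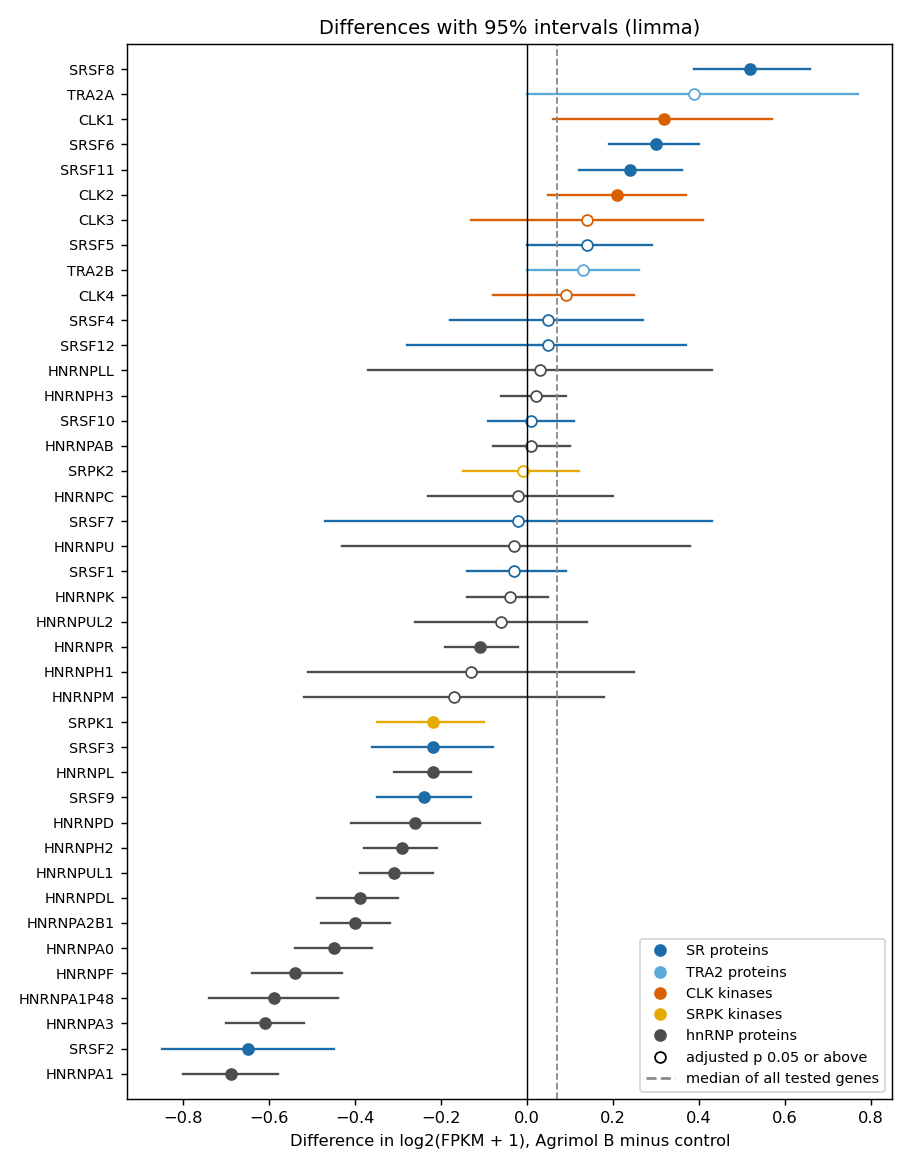
Difference in log2(FPKM + 1), Agrimol B minus control, with 95% intervals from limma for 41 of the 42 genes (HNRNPA1L2, whose interval runs from -1.98 to 1.95, is left out); colours mark the family, filled points have an adjusted p under 0.05, and the dashed line is the median of all tested genes, 0.07. All filled hnRNP points lie under 0, filled SR points lie on both sides, and filled CLK points lie above 0.

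Of the 12 SR proteins, 3 fell, 3 rose and 6 were not called, to be set against 21.4% lower and 30.6% higher over all tested genes. The summed level hardly moved, at 742 ± 7.16 FPKM in controls and 722 ± 12.1 FPKM with Agrimol B. The strongest fall and the strongest rise belonged to the sequence-related pair shown above. SRSF2, which marks nuclear speckles and binds both C-rich and G-rich exonic enhancers (chromosome 17, 76734115 to 76737374, minus strand), stood at 62.1, 68.6 and 63.2 FPKM in controls and 41.9, 36.5 and 44.3 FPKM with Agrimol B. This was a fall of 1.58-fold (log2 difference -0.65, SE 0.08, limma adjusted p = 0.00114). SRSF2 overlaps the microRNA gene MIR636 on its strand and MFSD11 on the other.

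SRSF8 (chromosome 11, 95067197 to 95071224, plus strand) stood at 13.8, 13.9 and 14.0 FPKM in controls and 19.9, 19.5 and 21.9 FPKM with Agrimol B, a rise of 1.47-fold (log2 difference 0.52, SE 0.06, limma adjusted p = 0.000605). Control values were almost equal, and every Agrimol B value was above them. The ratio of SRSF2 to SRSF8 was 4.51, 4.94 and 4.53 in control and 2.11, 1.87 and 2.02 with Agrimol B. On the log2(FPKM + 1) scale the difference in this ratio was -1.17, the largest of the 19 pairs of related genes compared. Of those 19 pairs, 9 had ratios that did not overlap between groups, each with an exact permutation p of 0.1 and a Benjamini-Hochberg adjusted p of 0.211, the lowest among the pairs. Ratios of other gene pairs were not counted for comparison. For single genes, the groups did not overlap in 62.2% of those tested.

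SRSF6 and SRSF11 also rose. SRSF6, an enhancer-binding SR protein (chromosome 20, 43457928 to 43464247, plus strand), went from 83.3, 80.7 and 83.0 FPKM to 101, 97.2 and 106 FPKM, or 1.23-fold higher (limma adjusted p = 0.00211). It thereby passed SRSF3 to become the second most abundant SR gene. SRSF11 rose 1.18-fold from 59.9 ± 1.74 to 71.0 ± 3.56 FPKM (adjusted p = 0.0084). SRSF4, the closest relative of SRSF6, was at 20.6 ± 2.68 and 21.2 ± 0.311 FPKM and was not called (adjusted p = 0.699).

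SRSF9 and SRSF3, the most abundant SR genes in control cells, fell slightly. SRSF9 went from 148, 156 and 162 FPKM to 127, 133 and 134 FPKM, or 1.18-fold lower (limma adjusted p = 0.00572). SRSF3, the smallest SR protein, went from 106, 106 and 112 FPKM to 95.3, 96.8 and 86.2 FPKM, or 1.16-fold lower (adjusted p = 0.0197); its call was lost without the third control library (adjusted p = 0.0611) and with a block for the replicate number (adjusted p = 0.0597). SRSF1, the prototype of the family and the relative of SRSF9, was at 65.4 ± 3.04 and 64.2 ± 2.00 FPKM, with a 95% interval of -0.14 to 0.09 (log2). SRSF10, which represses splicing when dephosphorylated, was at 50.3 ± 1.15 and 50.8 ± 1.51 FPKM, with an interval of -0.09 to 0.11.

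The remaining SR genes were not called. SRSF5 was at 62.7, 70.0 and 61.3 FPKM in controls and 69.8, 71.4 and 72.9 FPKM with Agrimol B (limma adjusted p = 0.0875), and without the second control library it would be called higher (adjusted p = 0.0179). SRSF7 was uneven in both groups, at 65.3, 52.5 and 48.6 FPKM and at 41.9, 62.4 and 61.2 FPKM. SRSF12, the lowest of all 42 genes, was at 1.55 ± 0.220 and 1.65 ± 0.441 FPKM.

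The TRA2 proteins bind purine-rich exonic enhancers. TRA2A stood at 40.1, 28.5 and 28.9 FPKM in controls and 37.5, 40.8 and 49.3 FPKM with Agrimol B. The groups overlap through the first control library. Its mean was 1.31 times the control mean and the difference did not pass the threshold (log2 0.39, SE 0.16, limma adjusted p = 0.0865); without that library it did (log2 0.54, adjusted p = 0.0181). TRA2B stood at 49.8, 48.1 and 51.4 FPKM in controls and 54.3, 51.8 and 57.6 FPKM with Agrimol B, with all treated values above the controls and a mean 1.10 times higher (adjusted p = 0.0816).

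Of the 4 CLK kinases, 2 were called higher and 0 lower by limma (0 lower also at an unadjusted p under 0.05), beside 30.6% of all tested genes called higher and 21.4% lower. Both calls were lost under most alternatives. CLK1 (chromosome 2, 200853009 to 200864744, minus strand) stood at 15.2, 20.1 and 18.6 FPKM in controls and 23.4, 22.9 and 21.1 FPKM with Agrimol B, a rise of 1.25-fold (adjusted p = 0.0455). Over the 13 alternatives its adjusted p ran from 0.0274 to 0.119, and of the 6 fits that each left out 1 library, only the one without the second control library kept the call. CLK2 rose 1.18-fold from 5.78 ± 0.210 to 6.84 ± 0.498 FPKM (adjusted p = 0.0387; 0.0218 to 0.139 over the alternatives, with the call kept only without the second Agrimol B library among the same 6 fits). CLK3 was at 22.9 ± 1.13 and 25.5 ± 3.97 FPKM. CLK4, the closest relative of CLK1, stood at 3.12, 3.05 and 3.45 FPKM in controls and 3.69, 3.26 and 3.46 FPKM with Agrimol B (adjusted p = 0.318).

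Of the SRPK kinases, SRPK1 was called lower and SRPK2 was not called. SRPK1 (chromosome 6, 35832966 to 35921342, minus strand) stood at 30.9, 32.8 and 29.7 FPKM in controls and 27.1, 26.5 and 25.8 FPKM with Agrimol B, a fall of 1.18-fold (limma adjusted p = 0.0114). SRPK2 stood at 20.5, 23.2 and 21.3 FPKM in controls and 21.7, 21.2 and 21.4 FPKM with Agrimol B, with an interval of -0.15 to 0.12 (log2). The log2 ratio of SRPK1 to SRPK2 was 0.46 to 0.57 in control and 0.26 to 0.31 with Agrimol B (exact permutation p = 0.1, adjusted 0.211 over the 19 pairs). No pair could pass the threshold, because 0.1 is the smallest p that 3 against 3 libraries can give.

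Among the 21 uncalled genes, 10 had a 95% interval inside a 1.2-fold change either way: HNRNPC, HNRNPH3, HNRNPK, HNRNPAB, HNRNPUL2, CLK4, SRPK2, SRSF1, SRSF10 and TRA2B. For the other 11 the interval reached past 1.2-fold. Some called genes also moved less than this, such as HNRNPR (1.08-fold) and HNRNPL (1.16-fold). The bound therefore does not show an absence of change, and TRA2B is inside it with all treated values above the controls. Over the 42 genes, 16 had all Agrimol B values under all control values and 6 had them all above (52.4% in all), against 26.0%, 36.2% and 62.2% of tested genes for lower, higher and either.

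Transcript annotation was not used to choose the genes, and its counts are given without a test. All 12 SR genes have at least 1 transcript annotated as a target of nonsense-mediated decay in GENCODE, as do both TRA2 and both SRPK genes, 3 of 4 CLK genes and 13 of 22 hnRNP genes. Among all tested genes that could be matched this share is 43.2%. A retained-intron transcript is annotated for 75.0% of SR genes, 63.6% of hnRNP genes and 57.7% of all tested genes. Each gene has a single value, so the share of poison-exon transcripts was not measured here.

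Promoter sequence was available for 38 of the 42 genes in RefSeq (GRCh38.p14), as 57 windows, of which the 250 bases before the start were searched on both strands. The hexamer CACGTG, an E-box, was in 9 of the 57 windows (15.8%) against 6.34% of 35116 windows of all genes. The GC box GGGCGG was in 61.4% against 42.6%, CCAAT in 38.6% against 32.0%, and the ETS motif CCGGAAGT in 5.26% against 3.42%. No window held TGACGTCA (CRE), TGATGCAA (CHOP-ATF element) or the NRF1 motif, which are in 1.65%, 0.772% and 1.03% of all windows. The 8 genes with an E-box include HNRNPA3, HNRNPD, HNRNPDL and HNRNPH2, which fell, CLK2, which rose, and HNRNPH3, HNRNPM and CLK4, which were not called. A match is a run of letters and not a measured binding site. The windows of all genes were not limited to the tested genes, and a gene can have more than 1 window. No comparison with expressed genes alone was made, and the shares were not tested. The 250 bases are shown for HNRNPA0 (chr5:137754364-137754613, minus strand) and HNRNPDL (chr4:82430463-82430712, minus strand), which fell, and for SRSF6 (chr20:43457646-43457895, plus strand), which rose; capitals mark any of the 7 motifs searched, either strand.
HNRNPA0: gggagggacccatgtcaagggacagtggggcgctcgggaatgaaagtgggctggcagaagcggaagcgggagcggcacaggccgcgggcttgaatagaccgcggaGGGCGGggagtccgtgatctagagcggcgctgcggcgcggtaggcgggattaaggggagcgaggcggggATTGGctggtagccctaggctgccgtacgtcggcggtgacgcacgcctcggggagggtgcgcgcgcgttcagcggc
HNRNPDL: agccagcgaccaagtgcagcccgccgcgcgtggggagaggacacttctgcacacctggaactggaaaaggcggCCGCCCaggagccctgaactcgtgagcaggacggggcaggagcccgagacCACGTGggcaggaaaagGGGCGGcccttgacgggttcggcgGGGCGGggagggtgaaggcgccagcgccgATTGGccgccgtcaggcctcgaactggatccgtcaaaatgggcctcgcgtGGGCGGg
SRSF6: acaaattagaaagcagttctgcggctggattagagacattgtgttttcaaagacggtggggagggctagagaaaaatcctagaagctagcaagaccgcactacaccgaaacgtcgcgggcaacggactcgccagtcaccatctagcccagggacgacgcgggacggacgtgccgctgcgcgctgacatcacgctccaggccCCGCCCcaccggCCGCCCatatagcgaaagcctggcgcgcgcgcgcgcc
The promoter of HNRNPDL holds an E-box, an inverted CCAAT and GC boxes, that of HNRNPA0 an inverted CCAAT and a GC box, and that of SRSF6 GC boxes alone.

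Other genes of the splicing pathway were counted from 5 lists, to be read against the 21.4% lower and 30.6% higher of all tested genes. Of 39 other RNA-binding splicing regulators, 11 fell and 5 rose (median log2 difference -0.09). NONO and PSPC1, partner proteins of paraspeckles, fell 1.51-fold and 1.46-fold, from 139 ± 18.8 to 92.1 ± 6.40 FPKM and from 46.0 ± 2.65 to 31.6 ± 1.99 FPKM. PTBP3, a polypyrimidine tract binding protein, fell 1.52-fold to 14.5 ± 1.19 FPKM. Of 26 SR-related proteins, 8 rose and 2 fell (median 0.14). CCNL1, a cyclin of the speckle-associated CDK11 kinases, rose 1.32-fold and RSRP1 1.37-fold, while LUC7L3, a U1 snRNP-associated protein, fell 1.47-fold. The number that rose was 4 with median-ratio scaling, 4 with quantile normalization and 5 with a block for the replicate number. It was also 4 without the third control library and 5 without the second or the third Agrimol B library.

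Of 53 core spliceosome genes, 16 rose and 9 fell (median 0.05), near the shares of all tested genes; with median-ratio scaling 18 fell and with quantile normalization 15. SNRPC, of the U1 snRNP, and U2AF2, which recognises the polypyrimidine tract, fell 1.47-fold and 1.39-fold, and SLU7, a second-step factor, rose 1.40-fold. Of 15 tested genes among the other kinases, phosphatase subunits and importer acting on SR proteins, 5 rose and 3 fell; leaving out any 1 control library left 1 that fell. DYRK3, a kinase that dissolves speckles, rose 2.39-fold from 3.47 ± 0.291 to 8.29 ± 0.608 FPKM (limma adjusted p = 0.000166). CDK13 rose 1.80-fold, and PPP1CC, a catalytic subunit of protein phosphatase 1, fell 1.54-fold.

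Genes of nonsense-mediated decay and the exon junction complex, the route that removes poison-exon transcripts, were called higher in 12 of 15 cases and lower in 0 by limma (0 lower also at an unadjusted p under 0.05), beside 30.6% and 21.4% of all tested genes, with a median log2 difference of 0.36. The decay factors SMG9 and UPF3B rose 1.56-fold and 1.45-fold, to 21.9 ± 1.47 FPKM and 25.9 ± 0.763 FPKM. MAGOHB, of the exon junction complex, rose 1.52-fold to 18.9 ± 3.30 FPKM. The number called depended on scaling and libraries: it was 6 with median-ratio scaling, and leaving out 1 library gave 6 (without the second control or the third Agrimol B library), 7 (without the second Agrimol B library) or up to 9.

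**Figure D4:**
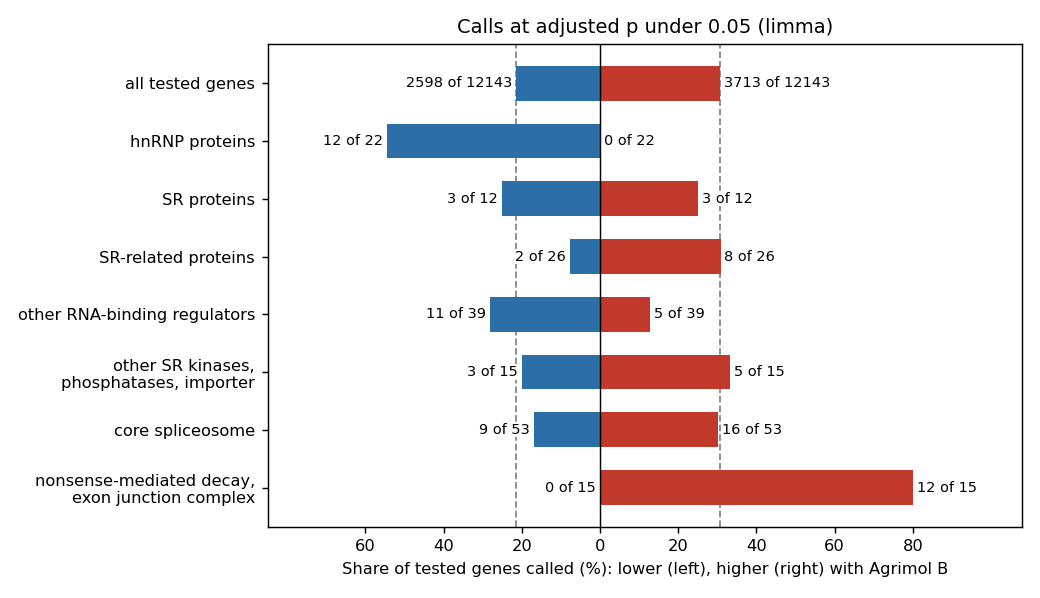
Share of tested genes called lower (blue, to the left) and higher (red, to the right) at a limma adjusted p under 0.05, for hnRNP and SR proteins and 5 further lists, with counts beside the bars; dashed lines are the shares of all tested genes, 21.4% and 30.6%. The hnRNP bar extends only to the left (12 of 22) and the bar of nonsense-mediated decay and the exon junction complex only to the right (12 of 15).

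Across the whole table, 6311 of 12143 tested genes were called. Total FPKM lay between 352990 and 359537 per library. The number of reads is unknown; from the spacing of values in genes under 0.05 FPKM, depth relative to the first control library was 0.99 to 1.04 in controls and 1.00 to 1.19 with Agrimol B. The summed level of the 10 mesenchymal markers was 1623 to 1722 FPKM in controls and 1218 to 1264 FPKM with Agrimol B, that of 6 epithelial markers 18.1 to 20.5 and 17.9 to 23.9 FPKM, that of the 3 of 6 leukocyte markers present among the deposited genes 1.19 to 1.84 and 0.393 to 0.774 FPKM, and that of 5 endothelial markers 3.55 to 3.94 and 0.933 to 1.31 FPKM. Not all 10 mesenchymal markers moved with their sum: COL6A2 and RUNX2 had higher means with Agrimol B, and the rest had lower means. The part of these shifts in the values above was not tested. In a bulk sample, a lower share of cells with a transcript and less of it per cell cannot be told apart.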

How the data were processed

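The authors deposited 1 table of FPKM values with 1 column per library, from stranded mRNA libraries per the labels' protocols. The submitters' processing notes name cutadapt, Trimmomatic, FastQC, HISAT and the build hg38; the program behind the FPKM values, its annotation and its handling of strand and of multi-mapping reads were not given in the sources used here. Columns were matched to samples by name; the control columns carry the letters of the sample descriptions in the other order. Values were tested as log2(FPKM + 1) with limma 3.58.1 in R 4.3.3 (group term, variance trend, two-sided) on genes whose mean reached 1 FPKM. Folds in the text are ratios of mean FPKM. Alternatives were a pseudocount of 0.1, no filter and a filter of 5 FPKM, median-ratio and quantile scaling, no variance trend, a replicate block and leaving out each library. The limma fit was also tried on simulated data. These held far fewer changed genes than were called here and no shift in scale, so they do not speak to the effect of scaling. Ratios of 19 related pairs were tested by exact permutation over libraries (scipy 1.17.1). Coordinates and transcript types are from GENCODE 29, where all 42 genes matched; 12 overlap another gene on their strand and 19 on the other. Coding sequences were aligned with Biopython 1.88. The genes named were all 42, the 10 largest differences and the extremes of each family in full, and up to 3 called genes per pathway list. The members, lists and hnRNP subgroups were chosen with earlier results of these data known.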

Additional observations from a re-analysis of the deposited data

How the results depend on the processing

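The number of the 42 genes called lower stayed between 14 and 16 over all 13 alternatives, against 16 as reported. The number called higher was 3 without a filter, 3 with median-ratio scaling and 3 to 5 when 1 library was left out, against 5; CLK1 and CLK2 account for the calls lost. Their median log2 difference was -0.10 with median-ratio scaling, -0.07 with quantile normalization and -0.09 to -0.03 with 1 library left out. Over all tested genes, 58.8% of calls were higher as reported, 49.2% with median-ratio scaling and 50.1% with quantile normalization. Among the lists, SR-related genes called higher numbered 8 as reported, 4 with either scaling, 5 with the replicate block and 4 to 8 with 1 library left out. Core spliceosome genes called lower numbered 9 as reported, 18 with median-ratio scaling and 15 with quantile normalization. Genes of nonsense-mediated decay called higher numbered 12, then 6 with median-ratio scaling and 6 to 9 with 1 library left out. Kinases and phosphatase subunits called lower numbered 3, then 1 with the block and 1 to 2 with 1 library left out.

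Direction changed only in genes that were not called as reported. With median-ratio scaling the log2 differences became -0.05 for HNRNPH3, -0.02 for SRSF4, -0.04 for HNRNPLL, -0.06 for SRSF10 and -0.06 for HNRNPAB. With quantile normalization they became 0.12 for HNRNPC, -0.02 for SRSF4, -0.03 for HNRNPLL, 0.00054 for HNRNPU, -0.0047 for SRSF12, 0.11 for HNRNPK and -0.02 for SRSF10. With 1 library left out, they ran from -0.12 to 0.16 for SRSF7, -0.57 to 0.79 for HNRNPA1L2, -0.16 to 0.12 for HNRNPU, -0.07 to 0.09 for HNRNPC, -0.05 to 0.04 for SRPK2, -0.06 to 0.01 for SRSF1, -0.10 to 0.17 for HNRNPLL, -0.01 to 0.03 for HNRNPAB, -0.04 to 0.14 for SRSF4, -0.08 to 0.13 for SRSF12, -0.30 to 0.02 for HNRNPH1 and -0.01 to 0.03 for SRSF10. The cause of these changes was not tested.

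Same-numbered libraries showed no clear shared deviation. Their deviations from the group means correlated at 0.04, -0.01 and -0.01, and the second control library correlated best with the third Agrimol B library (0.07). These values cannot tell whether same-numbered libraries were handled together. With the replicate block, 4 of the 42 genes were called higher and 14 lower, and CLK1, SRSF3 and HNRNPR were not called. Depth is unknown, so the counting error of single FPKM values could not be given.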

Other observations

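The read-through gene HNRNPUL2-BSCL2, which was not among the 42 genes and was looked at after its values were seen, varied 29.7-fold between libraries. It stood at 7.39, 0.475 and 6.77 FPKM in control and 13.8, 7.17 and 0.466 FPKM in Agrimol B libraries. The second control library and the third Agrimol B library were the lowest of their groups. The same held for HNRNPA1L2 (1.01 and 0.394 FPKM) and HNRNPLL (22.9 and 22.3 FPKM). It also held for HNRNPA2B1 (248 and 186 FPKM) and HNRNPA3 (144 and 93.8 FPKM), where replicates lay close together. HNRNPUL2, which shares a locus with HNRNPUL2-BSCL2, was highest of its group in those 2 libraries (38.4 and 39.5 FPKM). These genes were named after their values were seen. The share of all genes with such an order was not counted, and a shared pattern of these libraries was not tested.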
